A study of Vitis riparia with 12 samples.

Results

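The genes described here are 10 invertases and sugar transporters of the grapevine Vitis riparia, out of 29970 gene identifiers with a transcript level in every library. They were taken from a fixed list of identifiers: a cell wall invertase, 2 vacuolar invertases, 2 sucrose transporters, the hexose transporters HT1, HT3 and HT5, the tonoplast transporter TMT2 and SWEET10. All 10 identifiers were present, and all 10 passed the filter on low values (3 or more libraries at 1 FPKM or above), which left 21848 genes for testing. FPKM is a count of fragments divided by transcript length and by the number of mapped fragments. Levels can therefore be set side by side between genes, but only roughly. The genome build and the handling of reads shared by similar genes are not given. The deposited files pair no identifier with a gene name, and the names and roles below are those of the list, read in its order. The list names the sucrose transporters SUC11 and SUC27 without saying which identifier is which, so they are called here by their chromosome. Whether both names are right could not be checked.

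A growing shoot tip imports most of its carbon as sucrose through the phloem. Sucrose can be split into glucose and fructose by invertases, either in the cell wall after it has left the phloem or in the vacuole after uptake into the cell. Vacuolar invertase is known for keeping sugars and turgor high in expanding cells, and cell wall invertase for maintaining the sucrose gradient out of the phloem. SUC proteins carry sucrose across membranes together with protons, and HT proteins as a family carry glucose and other hexoses in the same way. Transport by the single listed proteins was not measured here. TMT proteins move sugars into the vacuole, and SWEET proteins let sugars pass along their gradient. In leaves of cultivated grapevine, Vitis vinifera, HT5 and a cell wall invertase are known to be induced together by abscisic acid and by biotrophic fungi.

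Shoot tips of V. riparia PI588259, a single genotype, were compared under a short photoperiod of 13 h (SD) and a long photoperiod of 15 h (LD). The 4 groups were SD21 and LD21, collected after 21 days of differential photoperiod, and SD7 and LD7, collected after 7 days, with 3 libraries each. All vines were potted, spur-pruned and 6 years old, grew under the long photoperiod for 30 days, and were treated from 5 days after randomization, with the short days imposed by a black-out cover. Each library came from a replicate of 5 vines, and a tip spanned 4 nodes, so that young leaves, stem and apex were measured together. In such bulk tissue, fewer cells of a type and less RNA per cell cannot be told apart.

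The SD21 libraries stood apart from the other 9 across the whole transcriptome. Correlations of log2(FPKM + 1) over the tested genes were 0.692 to 0.829 between SD21 and the other libraries, and 0.914 to 0.967 between libraries of LD21, SD7 and LD7. The 10 most abundant genes of a library held 16.2% to 21.3% of its FPKM in SD21 against 4.81% to 5.85% in LD21, and 9.39% to 9.94% in SD7 against 8.48% to 9.05% in LD7. A larger share in a few genes can lower the FPKM of the rest. The summed FPKM of a library was also higher in SD21, at 1.07e+06 to 1.11e+06 against 982454 to 999770 in LD21. The median log2 fold change of all tested genes in SD21 against LD21 was -0.30. How much of this median goes with the larger share was not tested. Quantile normalization brought that median to 0.02 and median-ratio scaling to -0.02. The part of this shift in the single values below was not tested, and the values under both scalings are given where they alter a call.

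At day 21 the 10 genes did not all move the same way. In SD21 against LD21, 5 of the 10 genes were higher, namely the cell wall invertase, both sucrose transporters, HT5 and SWEET10. Another 3 were lower, namely both vacuolar invertases and TMT2, which the list places at the vacuole. HT1 and HT3 were not called, although HT1 was after rescaling. Calls are limma tests over all 12 libraries with a Benjamini-Hochberg adjusted p under 0.05. The background was high, since 68.3% of all tested genes were called, 24.6% higher and 43.7% lower, and after quantile normalization 7339 were higher and 7099 lower. The 8 called of 10 are therefore a share close to that of the transcriptome, and the direction and size of each gene's change carry the description. The median of the absolute log2 fold changes was 1.77 over the 10 genes and 0.81 over all tested genes. The list was chosen with earlier results of these data known, so this contrast is no evidence of a stronger response of such genes. The SD21 and LD21 libraries did not overlap in 8 of the 10 genes and in 69.8% of all tested genes.

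**Figure D1:**
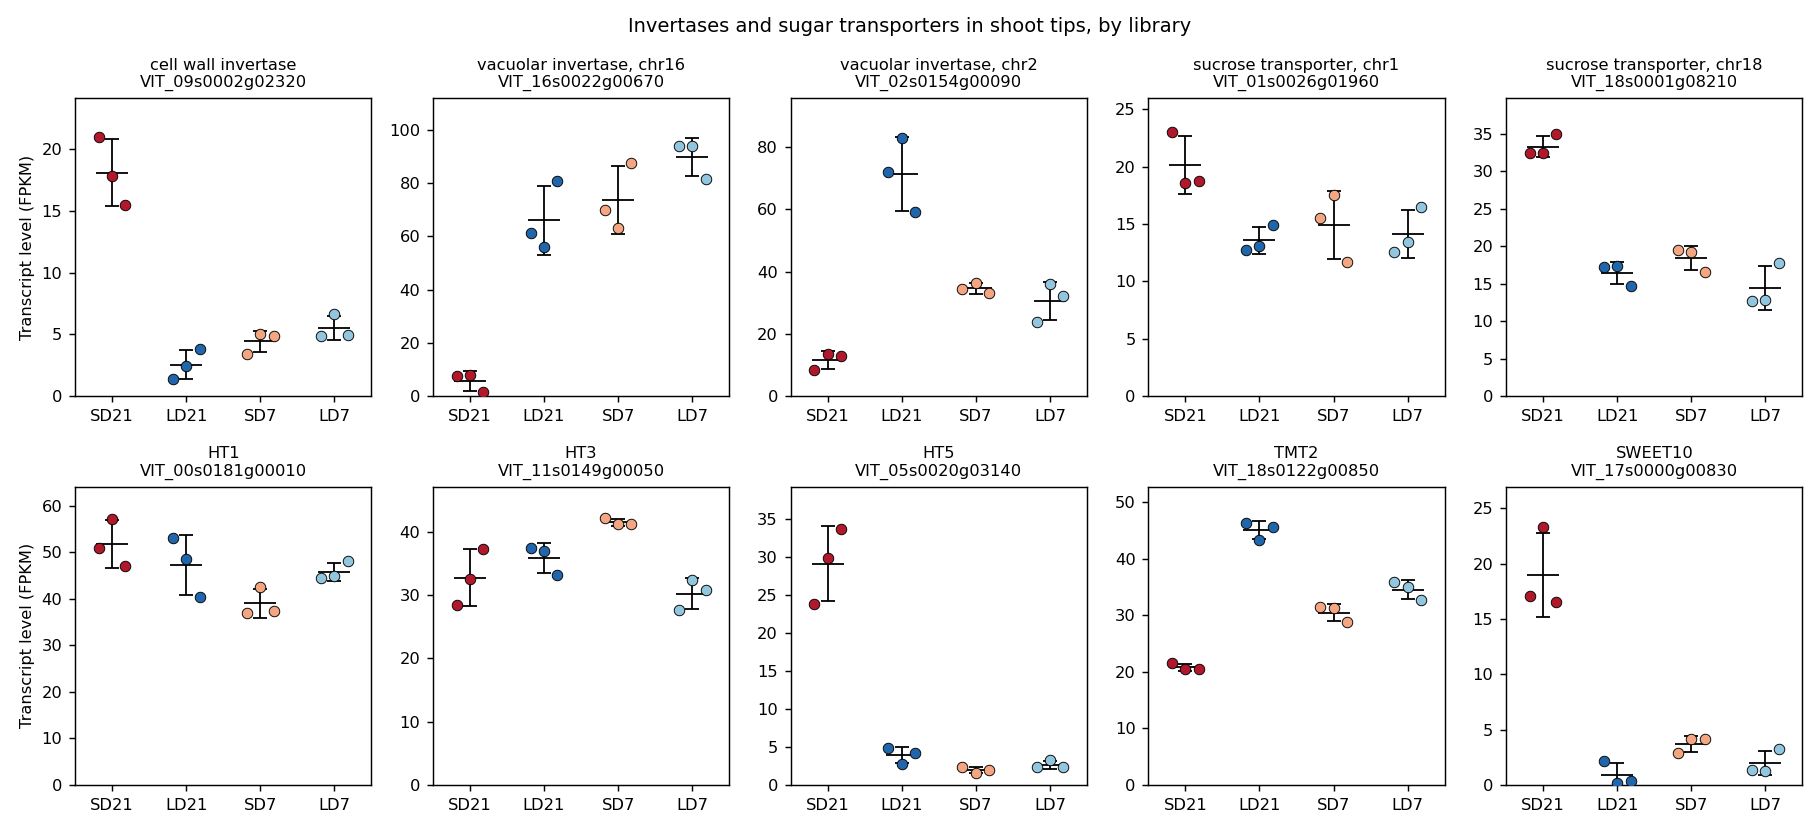
Transcript level in FPKM (vertical axes, each starting at 0) of the 10 genes in the groups SD21, LD21, SD7 and LD7 (horizontal axis). Points are libraries and bars are the mean ± SD of 3 libraries. The SD21 libraries lie apart from the LD21 libraries in every panel except HT1 and HT3.

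The cell wall invertase, VIT_09s0002g02320 (chromosome 9, 2133161 to 2136742), stood at 20.9, 17.8 and 15.5 FPKM in SD21, against 1.41, 2.45 and 3.82 FPKM in LD21. Each SD21 library was above every LD21 library, and the mean was 7.07-fold higher. The log2 fold change, here and below on the scale of log2(FPKM + 1), which understates changes of low genes, was 2.47 ± 0.24 (SE, adjusted p = 2.9e-06). The SD21 level was also above all 6 day 7 libraries, which ran from 3.44 to 6.63 FPKM.

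The vacuolar invertases moved the opposite way. VIT_16s0022g00670 (chromosome 16, 12049398 to 12054187) stood at 7.59, 8.02 and 1.58 FPKM in SD21 and at 61.4, 56.0 and 80.6 FPKM in LD21. SD21 replicate 3 was lower than the other SD21 libraries, and none of the 3 came near the LD21 range. The mean was 11.5-fold lower in SD21 (log2 fold change -3.50 ± 0.39, SE, adjusted p = 1.3e-05), and without SD21 replicate 3 the log2 fold change was -2.91. This was the most negative fold change of the 10 genes, and only 2.17% of all tested genes had a more negative one.

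The vacuolar invertase VIT_02s0154g00090 (chromosome 2, 4882118 to 4884315) stood at 8.36, 13.6 and 12.8 FPKM in SD21 and at 71.8, 83.0 and 59.0 FPKM in LD21. The groups did not overlap, and the mean was 6.16-fold lower in SD21 (-2.54 ± 0.20, SE, adjusted p = 5.7e-07).

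Summed, the 3 invertases held 35.4 ± 4.97 FPKM in SD21 and 140 ± 4.64 FPKM in LD21 (SD, n = 3 each). The cell wall invertase made up 56.8%, 45.2% and 51.9% of that sum in the SD21 libraries and 1.05%, 1.73% and 2.66% in the LD21 libraries. In SD7 and LD7 its share ran from 3.19% to 4.86%. The summed level of these 3 listed invertases was thus lower in SD21 and differently composed. The cell wall gene was above each vacuolar gene in every SD21 library and below both in the other 9 libraries. Further invertase genes could not be named here, so a total over all invertases is not given.

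**Figure D2:**
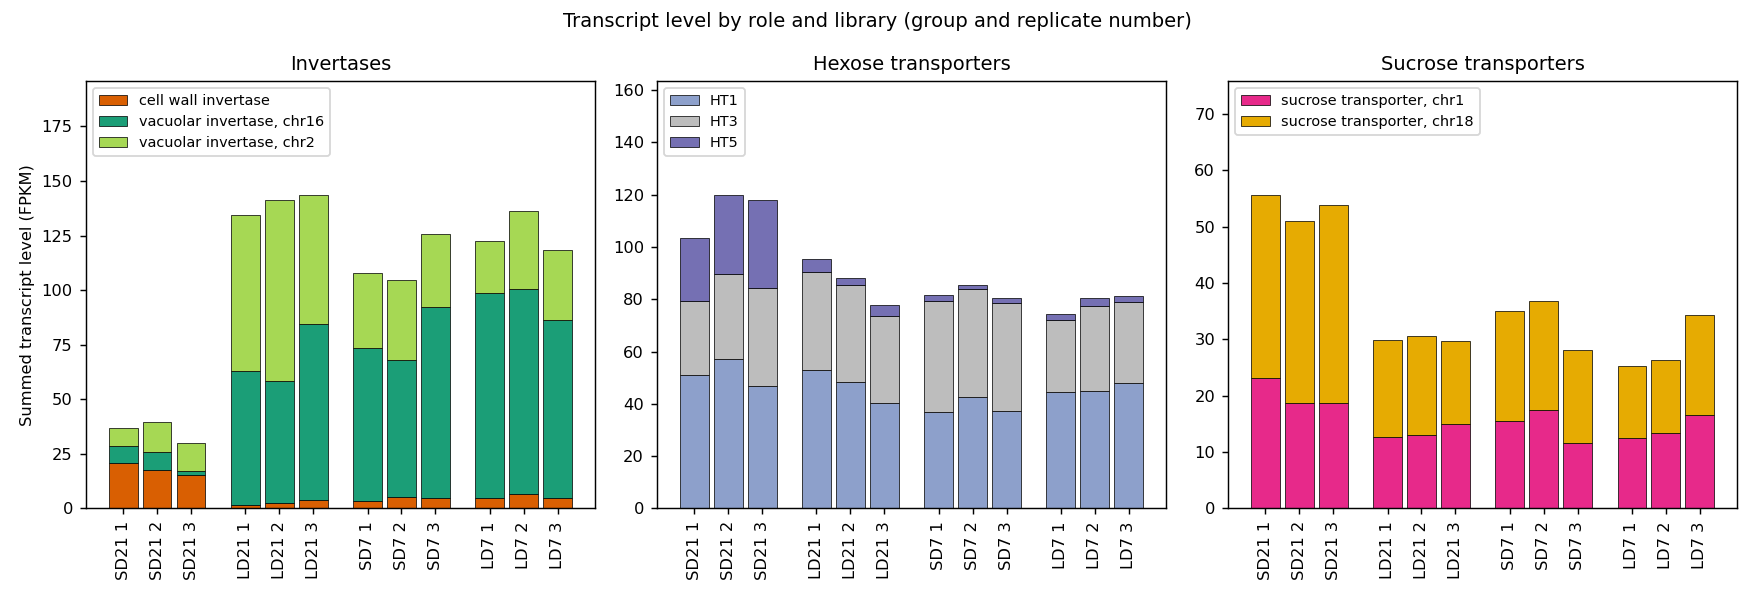
Summed transcript level in FPKM (vertical axes, starting at 0) of the listed invertases, hexose transporters and sucrose transporters in each of the 12 libraries (horizontal axis, group and replicate number), with colours for the single genes. The invertase sum is 29.8 to 39.4 FPKM in SD21 and 104 to 143 FPKM in the other 9 libraries, while the sucrose transporter sum is 51.0 to 55.5 FPKM in SD21 and 25.3 to 36.7 FPKM in the others.

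The sucrose transporters were both higher in SD21. VIT_18s0001g08210 (chromosome 18, 6694664 to 6698184) stood at 32.5, 32.4 and 35.0 FPKM in SD21 and at 17.2, 17.4 and 14.7 FPKM in LD21. The ranges were far apart compared with their width, and the mean was 2.02-fold higher (log2 fold change 0.98 ± 0.14, SE, adjusted p = 5.8e-05). VIT_01s0026g01960 (chromosome 1, 11312738 to 11322744) stood at 23.1, 18.6 and 18.8 FPKM in SD21 and at 12.7, 13.1 and 14.9 FPKM in LD21. Its rise was smaller, 1.48-fold in the mean (0.53 ± 0.16, SE, adjusted p = 0.011), and the adjusted p stayed under 0.05 with each library left out, reaching 0.046. Together the pair held 53.4 ± 2.26 FPKM in SD21 and 30.0 ± 0.44 FPKM in LD21 (SD, n = 3 each).

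Among the listed hexose transporters, HT5 was the gene called at day 21 on the deposited scale. HT5, VIT_05s0020g03140 (chromosome 5, 4868740 to 4873368), stood at 23.9, 29.9 and 33.7 FPKM in SD21 and at 4.80, 2.73 and 4.25 FPKM in LD21. No SD21 library was near the LD21 range, and the mean was 7.43-fold higher (log2 fold change 2.63 ± 0.20, SE, adjusted p = 5.0e-07). HT5 made up 23.1% to 28.5% of the summed level of HT1, HT3 and HT5 in SD21, 3.09% to 5.47% in LD21 and 1.89% to 4.09% at day 7.

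HT1, VIT_00s0181g00010 (on sequence not placed on a chromosome, Un, 7629429 to 7632499), stood at 51.0, 57.2 and 46.9 FPKM in SD21 and at 53.1, 48.5 and 40.3 FPKM in LD21. The ranges overlapped, and the log2 fold change was 0.13 with a 95% interval of -0.14 to 0.40 (limma, adjusted p = 0.36). Relative to the median of all tested genes it was 0.43, and HT1 was called higher after quantile normalization (0.29, adjusted p = 0.043) and after median-ratio scaling (0.47, adjusted p = 0.0064).

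HT3, VIT_11s0149g00050 (chromosome 11, 6735323 to 6739241), stood at 28.4, 32.5 and 37.4 FPKM in SD21 and at 37.5, 37.1 and 33.2 FPKM in LD21. These ranges overlapped as well, with a log2 fold change of -0.13 and a 95% interval of -0.38 to 0.12 (limma, adjusted p = 0.32). The sign depended on the scaling, at 0.07 after quantile normalization and 0.20 after median-ratio scaling, neither of them called. For HT1 and HT3 the intervals leave out a change of 2-fold in either direction, whereas HT5 changed by more than that.

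TMT2, VIT_18s0122g00850 (chromosome 18, 613495 to 619041), stood at 21.5, 20.5 and 20.4 FPKM in SD21 and at 46.2, 43.3 and 45.7 FPKM in LD21. This gene had the smallest spread of the list within both groups, with a coefficient of variation of 2.83% in SD21 and 3.52% in LD21. The mean was 2.17-fold lower in SD21 (log2 fold change -1.08 ± 0.09, SE, adjusted p = 8.8e-07). Relative to the median of all tested genes the log2 fold change was -0.78, and across the alternatives it ran from -1.11 to -0.75 and remained called.

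SWEET10, VIT_17s0000g00830 (chromosome 17, 551029 to 552885), had the largest rise of the list. The SD21 libraries stood at 17.1, 23.3 and 16.5 FPKM, against 2.18, 0.181 and 0.312 FPKM in the LD21 libraries. LD21 replicate 1 was well above the other LD21 libraries at this low level, and the SD21 libraries were all far above it. The mean was 21.3-fold higher in SD21. Without LD21 replicate 1, 2 or 3 it was 77.0-fold, 15.2-fold or 16.1-fold higher, so the ratio depended strongly on single low LD21 values. The log2 fold change of 3.54 ± 0.36 (SE, adjusted p = 5.1e-06) was above that of 99.3% of tested genes. With a pseudocount of 0.1 it was 4.88. With each library left out it ran from 3.27 to 3.99, the highest without LD21 replicate 1, the highest LD21 library.

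**Figure D3:**
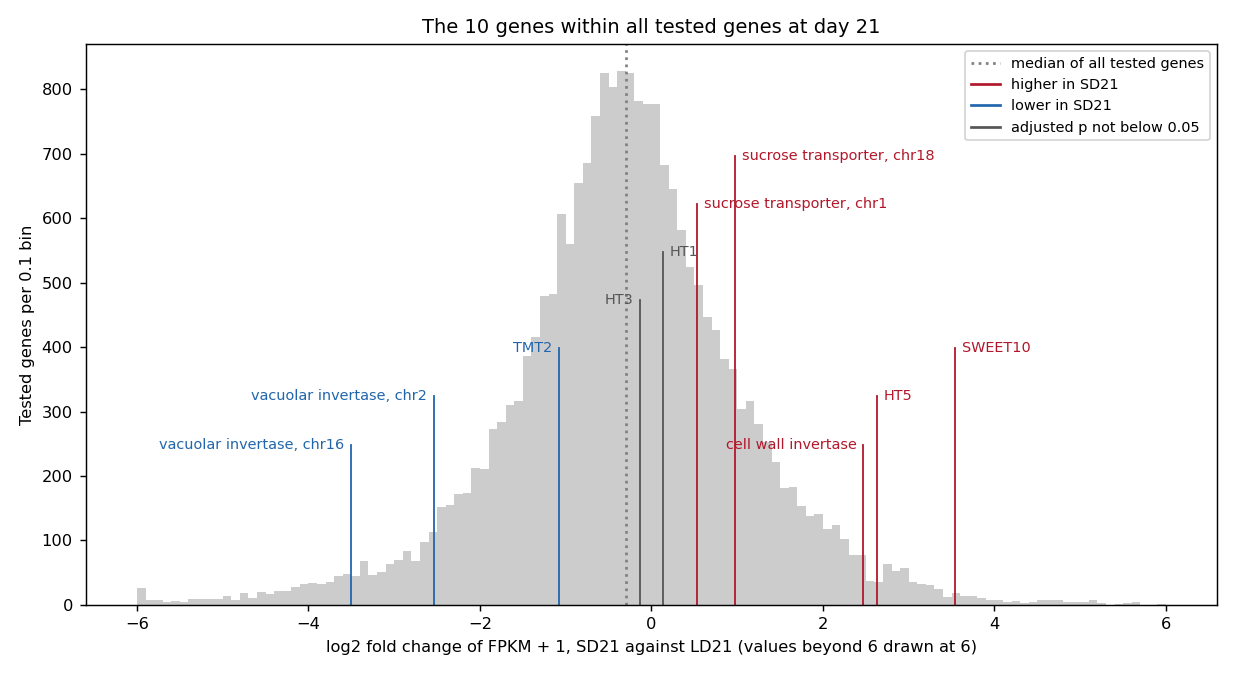
Distribution of the log2 fold change of FPKM + 1 in SD21 against LD21 (horizontal axis) over the 21848 tested genes, as genes per bin (vertical axis), with the 10 genes drawn as labelled lines and the median of all tested genes (-0.30) dotted. SWEET10 (3.54), HT5 (2.63) and the cell wall invertase (2.47) lie in the upper tail, the vacuolar invertases (-3.50 and -2.54) in the lower tail, and HT1 and HT3 near the middle.

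At day 7 none of the 10 genes was called. In SD7 against LD7 limma called 0 of 10 genes, and 0.833% of all tested genes were called. An unadjusted p under 0.05 was found for 2 of the 10 genes and for 3258 of the 21848 tested genes. The libraries of SD7 and LD7 did not overlap for 3 of the 10, HT3, HT1 and TMT2, against 24.8% of all tested genes. HT3 had the lowest adjusted p, with 42.2, 41.2 and 41.2 FPKM in SD7 and 27.7, 32.4 and 30.8 FPKM in LD7. All SD7 libraries were above all LD7 libraries, and the log2 fold change was 0.45 (95% interval 0.20 to 0.70, limma, adjusted p = 0.11). The chromosome 18 sucrose transporter VIT_18s0001g08210 was the other gene with an unadjusted p under 0.05, at 19.5, 19.2 and 16.5 FPKM in SD7 and 12.7, 12.8 and 17.8 FPKM in LD7, ranges that overlapped (0.34, 95% interval 0.04 to 0.64, adjusted p = 0.27). HT1 had 37.0, 42.6 and 37.4 FPKM in SD7, against 44.4, 44.9 and 48.1 FPKM in LD7 (-0.23, 95% interval -0.50 to 0.04, adjusted p = 0.42), and TMT2 had 31.5, 31.3 and 28.7 FPKM in SD7, against 35.9, 35.0 and 32.7 FPKM in LD7 (-0.17, 95% interval -0.37 to 0.02, adjusted p = 0.39). In both genes the SD7 libraries were all below the LD7 libraries, by less than 2-fold.

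SWEET10, HT5, the cell wall invertase and both vacuolar invertases were not called at day 7. SWEET10 had 2.88, 4.16 and 4.11 FPKM in SD7, against 1.37, 1.28 and 3.25 FPKM in LD7, with overlapping ranges (log2 fold change 0.72, 95% interval -0.07 to 1.51, limma, adjusted p = 0.39). HT5 had 2.40, 1.61 and 1.98 FPKM in SD7, against 2.40, 3.29 and 2.32 FPKM in LD7 (-0.29, 95% interval -0.73 to 0.15, adjusted p = 0.55). The vacuolar invertase VIT_16s0022g00670 had 69.9, 63.0 and 87.6 FPKM in SD7, against 93.9, 93.9 and 81.3 FPKM in LD7 (-0.29, 95% interval -1.16 to 0.57, adjusted p = 0.79). Its interval is wide enough to hold a 2-fold fall, but it rests on a spread shared by all 12 libraries, SD21 replicate 3 among them. The adjusted p was 0.42 without SD21 replicate 3 and 0.32 with only the groups compared (limma). For the chromosome 2 gene VIT_02s0154g00090, at 33.0 to 36.4 FPKM in SD7 and 23.8 to 35.9 FPKM in LD7, the interval was -0.24 to 0.62. The cell wall invertase VIT_09s0002g02320 had 3.44 to 5.04 FPKM in SD7 and 4.90 to 6.63 FPKM in LD7 (-0.26, 95% interval -0.78 to 0.26), and the chromosome 1 sucrose transporter VIT_01s0026g01960 had 11.7 to 17.5 FPKM in SD7 and 12.5 to 16.5 FPKM in LD7 (0.06, 95% interval -0.29 to 0.41). Both sets of ranges overlapped.

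**Figure D4:**
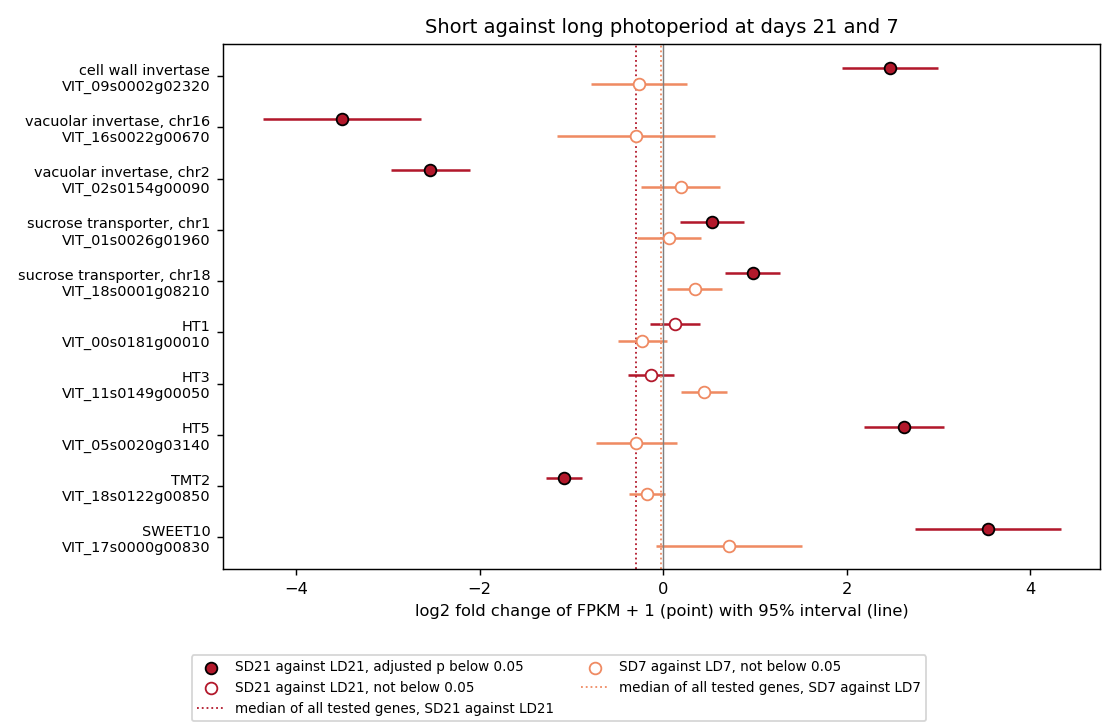
log2 fold change of FPKM + 1 (points) with 95% intervals (lines, horizontal axis) of the 10 genes (vertical axis) for SD21 against LD21 and SD7 against LD7, with filled points for an adjusted p under 0.05 and dotted lines at the medians of all tested genes (-0.30 and -0.03). At day 21, 8 points are filled, 5 to the right of 0 and 3 to the left, and at day 7 none is.

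Whether the photoperiod effect differed between the days was tested directly, as the effect at day 21 minus the effect at day 7. It was called for 8 of the 10 genes, 4 in the higher and 4 in the lower direction, where 55.1% of all tested genes were called, 19.6% higher and 35.5% lower (5610 and 5670 genes after quantile normalization). With quantile normalization or median-ratio scaling the split was 6 higher and 3 lower. HT5, VIT_05s0020g03140, had a difference of 2.92 ± 0.28 (log2, SE, adjusted p = 1.1e-05), from a fold change of 2.63 at day 21 and -0.29 at day 7. SWEET10 had 2.82 ± 0.51 (adjusted p = 0.00074) and the cell wall invertase with 2.73 ± 0.34 (adjusted p = 5.1e-05). The vacuolar invertases on chromosomes 16 and 2 had -3.21 ± 0.55 (adjusted p = 0.00058) and -2.73 ± 0.28 (adjusted p = 1.5e-05), TMT2 had -0.90 ± 0.13 (adjusted p = 0.00011) and the chromosome 18 sucrose transporter 0.63 ± 0.19 (adjusted p = 0.016).

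The remaining 3 differences were smaller and depended on the scaling. HT3, VIT_11s0149g00050, was called lower with -0.58 ± 0.16 (SE, adjusted p = 0.010), but its call ended with quantile normalization (-0.41, adjusted p = 0.051) and median-ratio scaling (-0.27, adjusted p = 0.21). The chromosome 1 sucrose transporter VIT_01s0026g01960 (0.47, adjusted p = 0.096) and HT1 (0.36, adjusted p = 0.10) were not called, and both were called under either scaling, with adjusted p of 0.012 and 0.0088 for the sucrose transporter and 0.024 and 0.0078 for HT1. Without SD7 replicate 2 the sucrose transporter was called as well (0.59, adjusted p = 0.046).

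The same differences can be read along time, within each photoperiod. In SD21 against SD7, all 10 genes were called, 6 higher and 4 lower, where 61.1% of all tested genes were called, 23.4% higher and 37.7% lower (6741 and 6365 genes after quantile normalization). The SD21 and SD7 libraries did not overlap for any of the 10 (64.7% of all tested genes). This comparison shares the SD21 libraries with SD21 against LD21. HT5 had the largest rise of the list, with a mean 14.6-fold higher in SD21 (log2 fold change 3.33 ± 0.20, SE, adjusted p = 2.7e-07). SWEET10 was 5.11-fold and the cell wall invertase 4.07-fold higher in the mean (2.08 ± 0.36 and 1.81 ± 0.24, SE). The chromosome 16 vacuolar invertase was 12.8-fold and the chromosome 2 gene 2.99-fold lower in SD21 (-3.66 ± 0.39 and -1.53 ± 0.20, SE), and TMT2, at 20.4 to 21.5 FPKM in SD21 and 28.7 to 31.5 FPKM in SD7, was 1.47-fold lower (-0.53 ± 0.09, SE, adjusted p = 0.00031). The chromosome 18 sucrose transporter rose by 0.82 ± 0.14 (SE, adjusted p = 0.00030).

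The smaller changes of that comparison rested on single libraries or on the scaling. The chromosome 1 sucrose transporter VIT_01s0026g01960 (0.42 ± 0.16, SE, adjusted p = 0.037) stood at 18.6 to 23.1 FPKM in SD21 and 11.7 to 17.5 FPKM in SD7. It lost its call without LD7 replicate 2 (adjusted p = 0.0503), SD7 replicate 1 (0.058), SD7 replicate 3 (0.15, log2 fold change 0.27) or SD21 replicate 1 (0.13), with only the groups compared (0.076) and in the fit blocked by replicate number (0.061). HT1, at 46.9 to 57.2 FPKM in SD21 and 37.0 to 42.6 FPKM in SD7 (0.40 ± 0.12, adjusted p = 0.015), lost its call without SD7 replicate 1 (0.052) or SD21 replicate 2 (0.055). HT3, at 28.4 to 37.4 FPKM in SD21 and 41.2 to 42.2 FPKM in SD7 (-0.34 ± 0.11, adjusted p = 0.023) lost its call without SD7 replicate 1 (0.058) or SD21 replicate 1 (0.089, log2 fold change -0.25), with only the groups compared (0.064), after quantile normalization (0.076) and after median-ratio scaling (0.35, log2 fold change -0.13).

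Under continued long days, 3 of the 10 genes were called in LD21 against LD7, 2 higher and 1 lower. Of all tested genes 18.1% were called, 10.5% higher and 7.63% lower (1669 and 1944 genes after quantile normalization), and libraries did not overlap for 5 of the 10 genes and 43% of all tested genes. The chromosome 2 vacuolar invertase VIT_02s0154g00090 was higher, at 71.8, 83.0 and 59.0 FPKM in LD21 and 23.8, 35.9 and 32.0 FPKM in LD7. These ranges did not overlap, the mean was 2.33-fold higher in LD21 (1.20 ± 0.20 as log2 fold change, SE, adjusted p = 0.0043), and the call held under all alternatives, with adjusted p up to 0.023. This gene thus rose with time under long days and fell with time under short days. The chromosome 16 vacuolar invertase was not called (-0.45, 95% interval -1.31 to 0.41, adjusted p = 0.44), with 61.4, 56.0 and 80.6 FPKM in LD21 and 93.9, 93.9 and 81.3 FPKM in LD7, ranges that did not overlap. Its interval rests on the spread of all 12 libraries, and with each library left out its adjusted p ran from 0.074 to 0.67 (limma). The chromosome 16 gene made up 40.3% to 57.7% of the vacuolar pair in LD21 and 71.7% to 79.8% in LD7.

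TMT2, VIT_18s0122g00850, was also higher with time under long days, at 46.2, 43.3 and 45.7 FPKM in LD21 and 35.9, 35.0 and 32.7 FPKM in LD7 (0.37 ± 0.09, SE, adjusted p = 0.017). The groups did not overlap, but the call ended without LD7 replicate 2 (adjusted p = 0.058) or LD7 replicate 3 (0.078) and after median-ratio scaling (0.059). The cell wall invertase VIT_09s0002g02320 was lower, at 1.41, 2.45 and 3.82 FPKM in LD21, against 4.90, 6.63 and 4.99 FPKM in LD7 (-0.92 ± 0.24, SE, adjusted p = 0.025). Its call ended without LD7 replicate 2 (adjusted p = 0.092), LD7 replicate 3 (0.062), LD21 replicate 1 (0.066) or LD21 replicate 2 (0.075) and with only the groups compared (0.058). The count of 3 was thus 1 without LD7 replicate 2 or LD7 replicate 3. SWEET10 had -0.74 (95% interval -1.53 to 0.05, adjusted p = 0.17) and was called lower without LD21 replicate 1 (-1.19, adjusted p = 0.026).

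**Figure D5:**
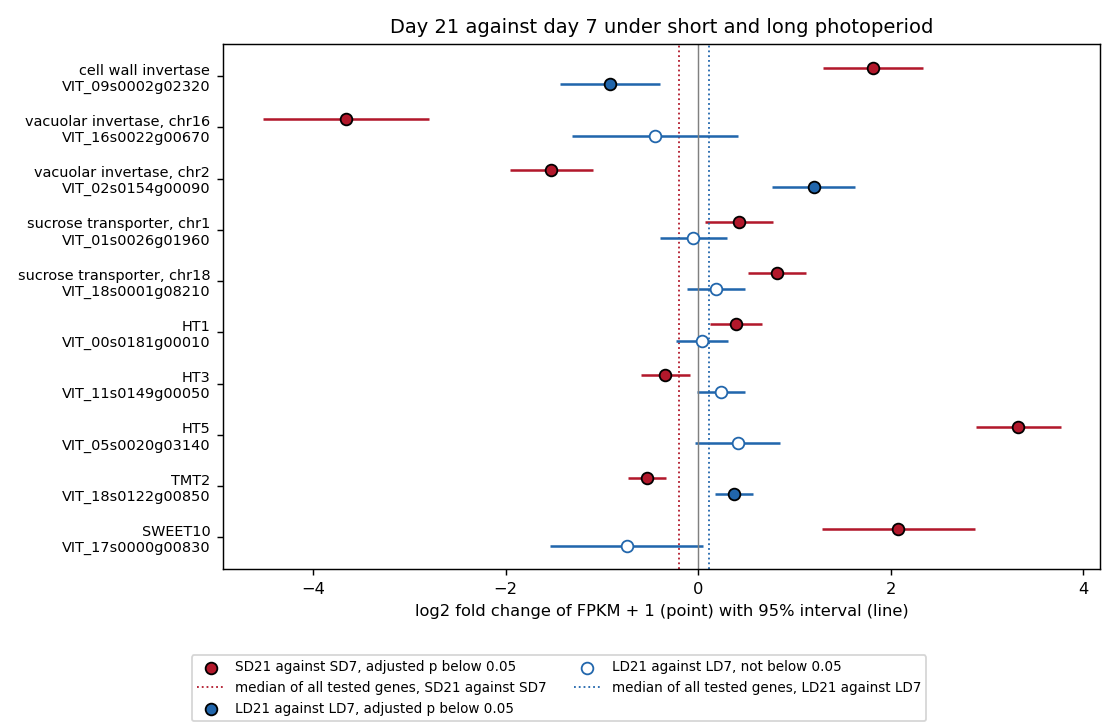
log2 fold change of FPKM + 1 (points) with 95% intervals (lines, horizontal axis) of the 10 genes (vertical axis) for SD21 against SD7 and LD21 against LD7, with filled points for an adjusted p under 0.05 and dotted lines at the medians of all tested genes (-0.20 and 0.11). All 10 points are filled under short days and 3 under long days, and each of the 3 genes called under long days, the cell wall invertase, the chromosome 2 vacuolar invertase and TMT2, lies on the other side of 0 under short days.

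The order of the 10 genes by level changed with the group. In SD21 the order of the mean levels began with HT1 (51.7 FPKM), followed by the chromosome 18 sucrose transporter (33.3), HT3 (32.8) and HT5 (29.2), and ended with the vacuolar invertases on chromosome 2 (11.6) and chromosome 16 (5.73). HT1 and both vacuolar invertases stood clear of their neighbours, while the libraries of the chromosome 18 sucrose transporter, HT3 and HT5 overlapped. In LD21 the order began with the vacuolar invertases on chromosome 2 (71.3 FPKM) and chromosome 16 (66.0), whose libraries overlapped, followed by HT1 (47.3) and TMT2 (45.1), which overlapped too. It ended with HT5 (3.93), the cell wall invertase (2.56) and SWEET10 (0.891), each overlapping the next.

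At day 7 the chromosome 16 vacuolar invertase was first in both groups, at 73.5 ± 12.7 FPKM in SD7 and 89.7 ± 7.26 FPKM in LD7 (SD, n = 3 each), clear of the next gene. The cell wall invertase, SWEET10 and HT5 took the last 3 places in SD7 and in LD7, as they did in LD21.

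Likeness of pattern was measured as the Euclidean distance between the 4 group means of log2(FPKM + 1), each gene centred on its own mean. SWEET10 and the cell wall invertase were nearest to each other within the list (distance 1.05), and the nearest member to HT5 was the cell wall invertase (1.42). These distances are not small in this transcriptome, since 426 tested genes were nearer to SWEET10, 2265 nearer to the cell wall invertase and 1045 nearer to HT5. HT1 and the chromosome 1 sucrose transporter lay nearest to each other (0.35), with 2388 and 2210 tested genes nearer. The nearest member to the chromosome 16 vacuolar invertase was the chromosome 2 gene (2.04, 2757 tested genes nearer). That of the chromosome 2 gene was TMT2 (1.07, 3874 nearer). The chromosome 18 sucrose transporter was nearest to the chromosome 1 gene (0.49, 1939 nearer). HT3 was nearest to HT1 (0.58, 6335 nearer) and TMT2 to HT3 (0.80, 9433 nearer). Outside the list, the tested gene nearest to SWEET10 was VIT_02s0025g04180 (chromosome 2, 3722110 to 3723098), with 47.9 ± 10.8 FPKM in SD21 against 3.34 ± 1.84 in LD21, and 11.4 ± 2.23 in SD7 against 6.21 ± 1.24 in LD7 (SD, n = 3 each). The gene nearest to the chromosome 16 vacuolar invertase was VIT_00s0125g00200 (Un, 1684194 to 1684647), with 11.3 ± 6.12 FPKM in SD21 against 110 ± 18.2 in LD21, and 139 ± 22.7 in SD7 against 173 ± 28.8 in LD7.

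The 10 loci lie on 8 numbered chromosomes and on unplaced sequence, none overlaps another listed locus, and none is directly next to another member. The spans run from 1857 bp (SWEET10) to 10007 bp (the chromosome 1 sucrose transporter). The tested genes directly before and after each member in the deposited coordinates, 20 in all, lay 837 to 43315 bp away. HT1 lies on unplaced sequence, so the genes flanking it there may not be its neighbours on a chromosome. Of the 16 that flank the 8 genes called in SD21 against LD21, 5 changed the way their member did, 7 changed the other way and 4 were not called. Of all tested genes 68.3% were called in this comparison, 24.6% higher and 43.7% lower, so these counts are not read as a trait of the loci. Both flanking genes of the chromosome 2 vacuolar invertase were lower in SD21 as it was, with log2 fold changes of -4.51 and -0.74, whereas both flanking genes of SWEET10 were lower while it was higher (-0.71 and -1.17).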

How the data were processed

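RNA sequencing (reads of 43 bp) of total RNA from shoot tips gave 12 libraries. The deposited values are FPKM per gene and library, per the file headers. Per the submitters' processing notes, the authors used Cufflinks 2.2.1, TopHat2 2.0.13, Bowtie2 2.2.4, cutadapt 1.8.1 and FastQC 0.11.3. Not given in the sources used here are the parameters, the genome build, the annotation, the use of strand and the handling of reads shared by similar genes. Coordinates are those of the files. Of 29970 identifiers, 0 were found in the reference gene table, so no other pathway genes, tissue markers or sequences are given. SD21 replicate 3 has a column header that reads replicate 2, with other values than replicate 2, and entered as replicate 3. Libraries of a group had at most 1 identical nonzero value.

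Genes with 3 or more libraries at 1 FPKM or above entered the test on log2(FPKM + 1) in limma 3.58.1 in R 4.3.3, as a group means model over all 12 libraries, which share 1 estimate of the spread, with trend and robust moderation and Benjamini-Hochberg adjustment over all 21848 tested genes. The fit was checked on simulated data in which known changes had been set. These were changes of a small set of genes, balanced in direction, without a shift of the whole transcriptome. The check therefore does not cover a shift such as that of SD21. Alternatives were quantile normalization, median-ratio scaling, limma without trend, a block for the replicate number, each library left out, a fit of only the compared groups, a pseudocount of 0.1, and no filter on low values. All 10 members are named whatever their values, with the nearest member of each, and the nearest gene outside the list for the members with the highest and the lowest fold change in SD21 against LD21. The members and lists were chosen with earlier results of these data known. Absolute depth is unknown. The commonest ratio of genes under 0.3 FPKM put relative depth at 1.00 in LD7 replicate 1 to 1.58 in SD7 replicate 1, with 51.0% to 60.8% of ratios on whole-number ratios up to 5 (within 0.005, log2) against 1.58% to 3.09% at a shifted position. No counting interval can be given. P-values measure the spread between replicates of 5 vines. Python 3.11.15, pandas 2.3.3 and matplotlib 3.10.9 were used for summaries and plots.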

Additional observations from a re-analysis of the deposited data

Results flagged for a closer look

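The photoperiod effect at day 21 differed from that at day 7 by a direct test in 8 of the 10 genes (limma, adjusted p under 0.05), where 55.1% of all tested genes differed. On the log2 scale, as the effect at day 21 minus that at day 7, the differences were 2.92 for HT5 (VIT_05s0020g03140), 2.82 for SWEET10 (VIT_17s0000g00830), 2.73 for the cell wall invertase (VIT_09s0002g02320) and 0.63 for the chromosome 18 sucrose transporter (VIT_18s0001g08210). They were -3.21 for the chromosome 16 vacuolar invertase (VIT_16s0022g00670), -2.73 for the chromosome 2 vacuolar invertase (VIT_02s0154g00090), -0.90 for TMT2 (VIT_18s0122g00850) and -0.58 for HT3 (VIT_11s0149g00050). Of these, the difference of HT3 lost its call after quantile normalization (-0.41) and median-ratio scaling (-0.27), and the other 7 were called under all 18 alternatives.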

How the results depend on the processing

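Over the 5 comparisons, 901 of 940 values of single genes under the alternatives kept their direction and their side of the threshold. Counts of called genes ran from 8 to 9 in SD21 against LD21, 8 to 9 for the difference between the days, 7 to 10 in SD21 against SD7 and stayed at 0 in SD7 against LD7. In LD21 against LD7 the count of 3 ran from 1 to 3 with each library left out and from 2 to 3 otherwise. All 8 calls of SD21 against LD21 held under all 19 alternatives. Values that changed sign belonged to genes that were not called. HT3 in SD21 against LD21 was 0.074 after quantile normalization and 0.20 after median-ratio scaling. HT1 in LD21 against LD7 (0.038) was -0.043 and -0.071 under these, and -0.048 to 0.146 with each library left out. The chromosome 1 sucrose transporter ran from -0.060 to 0.214 in SD7 against LD7 and from -0.128 to 0.057 in LD21 against LD7 with each library left out. The causes of these changes were not tested. What libraries with the same replicate number share beyond it is not known. Deviations from the group means correlated between -0.13 and 0.20 in the 18 pairs with the same number and between -0.17 and 0.15 in the 36 others. The highest, 0.20, was between replicate 1 of LD21 and replicate 1 of SD21. With 3 libraries a group, such correlations cannot exclude a shared block. With the replicate number as a block, counts were 8 in SD21 against LD21, 8 for the difference, 3 in LD21 against LD7, 9 in SD21 against SD7 and 0 in SD7 against LD7. The number of reads behind low values, such as SWEET10 in LD21, is unknown.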
